A study of Mus musculus with 30 samples.

Results

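Genes known from the secretory lining of the oviduct, 8 of the 50600 genes in the deposited table, were described in mouse ovaries: Ovgp1, Dcpp1, Dcpp2, Dcpp3, Pax8, Pax2, Il20rb and Kndc1. They were taken by gene name, and all 8 names were found once each. The 8 were selected on measured values of these same ovaries, namely their levels, their correlation with Ovgp1 and their difference between left and right ovaries, so those values are given as a description without a test. Both ovaries of 15 female C57BL/6 mice were sequenced separately, giving 30 samples. In the DSS group, 7 sexually immature mice drank 3% dextran sulfate sodium (DSS), a polysaccharide that injures the gut lining and causes colitis, in their water for 7 days, and the control group was 8 littermates. Ovaries of both groups were taken after sexual maturity, and ages in days are not given in the sources used here. Mice are called by group and label number, as in DSS_10.4, and nothing else sets the groups apart in the labels.

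The oviduct receives the ovulated egg and is lined by secretory cells and ciliated cells. Secretory cells release Ovgp1 (oviductin), a glycoprotein related to chitinases that coats the egg, and they are commonly recognised by the transcription factor Pax8. Pax2 and Pax8 are paired-box factors of the embryonic duct from which the oviduct and uterus arise. The Dcpp genes encode demilune cell and parotid proteins, small secreted proteins named after the serous cells of salivary glands and also known from the oviduct fluid of mice. Il20rb is the beta chain of the receptors for the cytokines IL-19, IL-20 and IL-24, and Kndc1 is a guanine nucleotide exchange factor for Ras that is best known from neurons.

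Libraries were made by CEL-Seq, which gives reads at the 3′ ends of polyadenylated transcripts, so a level does not scale with transcript length. Levels are the authors' normalized counts, that is reads divided by a size factor per library. Between 3095386 and 8564770 reads were recovered per library (median 4305814). Ovary markers were present: Inha, an inhibin subunit of granulosa cells, was at 5021 to 15504 and Cyp11a1, the first enzyme of steroid synthesis, at 1914 to 13001, while Insl3, a theca hormone, is listed at 0 in all 30 libraries. A further number in the sample labels, apart from that of the mouse, is odd for all left and even for all right ovaries. What it marks is not given, and side cannot be told apart from it. Left ovaries of mice DSS_16.3 and control_13.4 had the highest Dcpp2 of all libraries at low Ovgp1, and the correlations, side differences and DSS estimates of the Dcpp genes are given with and without them or their mice.

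Ovgp1 varied 606-fold between ovaries, from 110.2 to 66716 normalized counts, and was at 0 in none. In left ovaries of control mice it was at 120.2, 238 and 469 (lowest, median and highest of 8), and in their right ovaries at 133, 1951 and 41925. In DSS mice it was at 325, 1629.7 and 66716 in left ovaries and at 110.2, 646 and 10439.8 in right ovaries (7 each). The left ovaries of control mice were thus all low, and each of the other 3 groups held both low and high ovaries. Because these are bulk samples, fewer cells of a type and less RNA per cell cannot be told apart.

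Ovaries at or under 1000 counts of Ovgp1 numbered 20, a further 3 lay between 1000 and 5000, and 7 exceeded 5000. The order of levels had no wide break: the largest step between neighbours was 1.91-fold, from 4798 in the right ovary of DSS_13.2 to 9169 in the right ovary of control_16.9. Above it followed the left and right ovaries of DSS_11.1 (9953 and 10439.8), the right ovary of control_13.4 (18628), the left ovary of DSS_10.4 (25161), the right ovary of control_10.5 (41925) and the left ovary of DSS_11.2 (66716). High ovaries thus came from both treatments and both sides. In 6 of the 15 mice at least 1 ovary exceeded 5000, and in mouse DSS_11.1 both did.

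**Figure D1:**
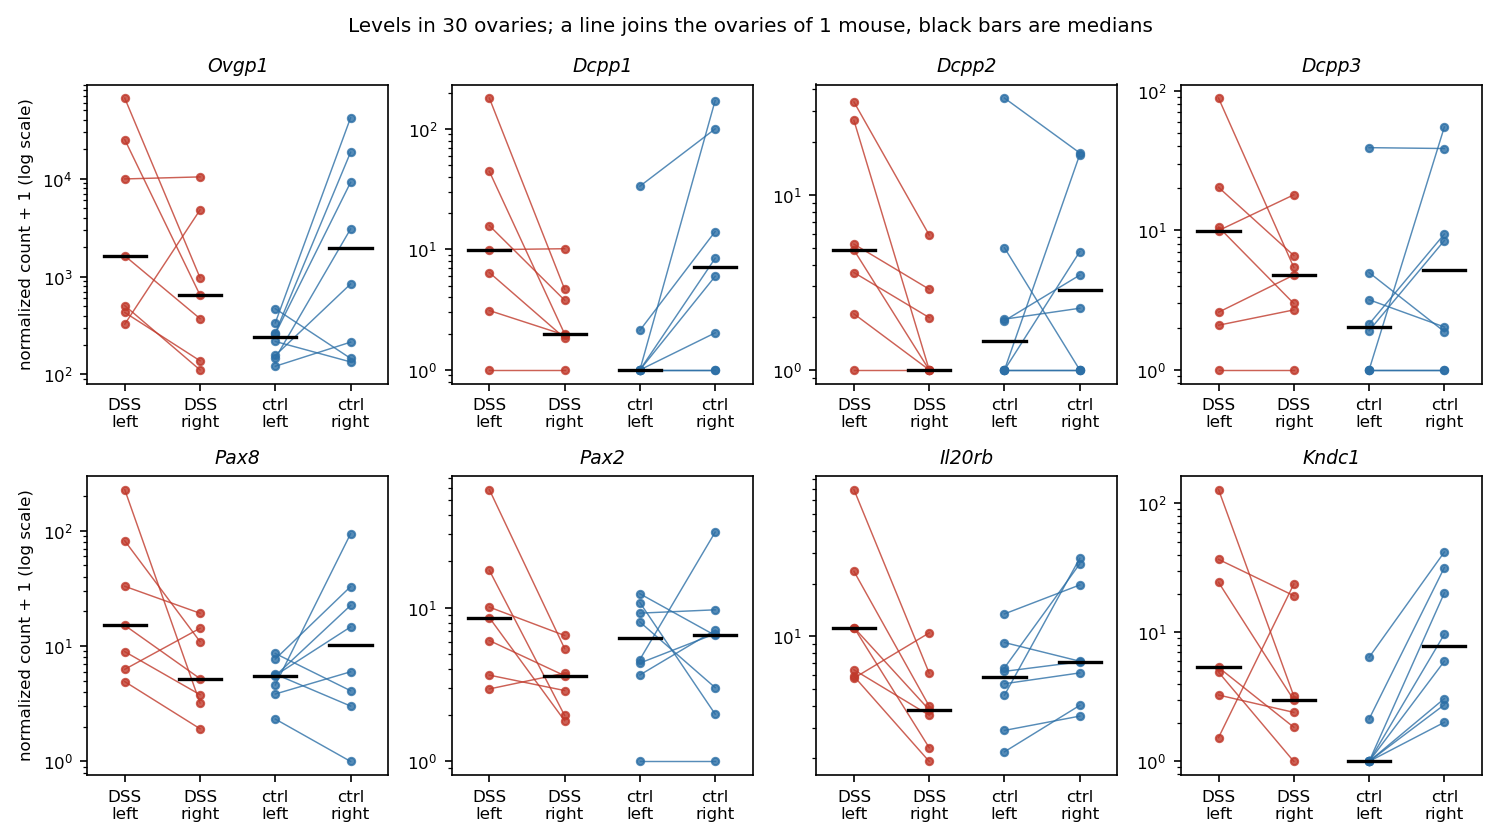
Normalized count + 1 (log axis) of the 8 genes in each ovary, by treatment and side. Each point is an ovary, a line joins the ovaries of 1 mouse and black bars are medians. Ovgp1 lies between 120.2 and 469 in all 8 left control ovaries and reaches 66716 in a left DSS ovary.

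Ovgp1 (ENSMUSG00000074340.9) lies on the plus strand of GRCm38 chromosome 3 at 105973711 to 105987723. Most deposited gene ends here, that of Ovgp1 included, lie 300 nt past the end in GENCODE M21. It overlaps the noncoding gene Gm42890 on the same strand, so reads may be split between them. The promoter window of the RefSeq transcript, 250 bases before its start at chr3:105973552-105973801 in GRCm38.p6, is shown because Ovgp1 had the widest range, with Esr1, the oestrogen receptor, among the genes that varied with it. Capitals mark GGTCA and TGAC separated by 3 bases, the spacing of an oestrogen response element, 113 bases before the RefSeq start. TGAC lacks the last base of TGACC, the reverse complement of GGTCA, and the next base of the window is t. The deposited gene start, 105973711, lies inside this window. By that start the last bases of the window are within the gene, and the motif is nearer to the start.
Ovgp1: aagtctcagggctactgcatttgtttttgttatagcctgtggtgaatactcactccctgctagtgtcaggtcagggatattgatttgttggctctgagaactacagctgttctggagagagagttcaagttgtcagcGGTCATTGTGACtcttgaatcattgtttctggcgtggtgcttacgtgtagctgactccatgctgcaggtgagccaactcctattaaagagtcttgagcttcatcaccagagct
This spaced motif, searched on both strands, was found in 57 of 32851 mouse promoter windows of the same length (0.174%), and in the windows of none of the other 7 genes. It was picked after the sequence had been read and leaves out the last base of TGACC, which this window lacks. Its share is therefore no measure of rarity. The shorter motif GGTCA, which overlaps it, matched 2 times in the Ovgp1 window and is in 35.2% of windows. GTCACGC, the core bound by Pax proteins, matched in no window of the 8 genes and is in 1.78% of all windows, and ACAAT, a Sox core, matched in those of Ovgp1 and the 3 Dcpp genes and is in 27.7%. A match describes letters only, and control by oestrogen was not tested.

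Dcpp1, the most abundant of the demilune proteins, was at or near 0 in most ovaries and high in a few. In DSS mice it was at 0, 8.95 and 179 (lowest, median, highest) in left ovaries and at 0, 0.99 and 9.13 in right ovaries. Control mice had 0, 0 and 32.5 in left ovaries and 0, 6.21 and 170.9 in right ovaries. It was at 0 in 10 of the 30 libraries, 6 of them left control ovaries, where 0 reads allow up to 3 reads, or 2.63 to 3.98 normalized counts. The highest left DSS and the highest right control ovary were those highest in Ovgp1, and the groups overlapped.

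Dcpp3 followed a similar course at lower levels. Its highest values were 87.4 in the left ovary of DSS_11.2, 53.97 in the right ovary of control_10.5, and 38.05 and 37.5 in the left and right ovaries of control_13.4. Medians were 8.95 and 3.78 in left and right DSS ovaries, and 1.02 and 4.24 in left and right control ovaries. Dcpp2 differed in where it was highest: it reached 34.7 in the left ovary of control_13.4 and 32.9 in the left ovary of DSS_16.3, against 25.6 in the left ovary of DSS_11.2, the ovary richest in Ovgp1. Group medians of Dcpp2 were 3.84 and 0 in left and right DSS ovaries and 0.46 and 1.87 in left and right control ovaries. Dcpp2 was at 0 in 12 libraries and Dcpp3 in 7, and 5 libraries had no read of any of the 3 genes. The 30 libraries held 1056 Dcpp reads in all, so single ovaries with few reads are imprecise.

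The 3 Dcpp genes are tandem copies on the plus strand of chromosome 17 (GRCm38), at 23880876 to 23883153 for Dcpp1 (ENSMUSG00000096445.1), 23880880 to 23901087 for Dcpp2 (ENSMUSG00000096278.7) and 23917458 to 23919741 for Dcpp3 (ENSMUSG00000057417.6). The deposited span of Dcpp2 encloses that of Dcpp1. Of 617 exonic bases of Dcpp1, 30 are also exonic in Dcpp2, and none of the 399 bases of its last exon is. Their annotated transcripts are 93.96% to 95.6% identical in pairs. Over the last 300 nt, where the reads of this method fall, identity was 91.3% to 96.7%, and 41.4% to 50.4% of stretches of 35 bases occur unchanged in a paralog. How the authors treated reads that fit more than 1 place is not given in the sources used here, so the level of each Dcpp gene is uncertain. Their promoter windows (RefSeq, GRCm38.p6, 250 bases up to the start) are shown to let the paralogs be compared, at chr17:23880626-23880875, chr17:23898472-23898721 and chr17:23917208-23917457. The window of Dcpp2 lies inside its deposited span. Capitals mark bases that differ between the copies.
Dcpp1: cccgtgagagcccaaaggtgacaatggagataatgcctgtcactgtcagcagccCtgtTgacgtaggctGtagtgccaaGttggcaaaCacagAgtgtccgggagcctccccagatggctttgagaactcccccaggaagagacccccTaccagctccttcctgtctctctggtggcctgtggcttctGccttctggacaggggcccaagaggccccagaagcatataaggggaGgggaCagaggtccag
Dcpp2: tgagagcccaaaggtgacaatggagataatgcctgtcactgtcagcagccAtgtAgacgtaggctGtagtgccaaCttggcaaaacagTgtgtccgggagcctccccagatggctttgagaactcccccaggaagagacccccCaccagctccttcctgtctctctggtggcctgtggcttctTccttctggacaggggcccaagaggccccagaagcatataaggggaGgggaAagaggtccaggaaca
Dcpp3: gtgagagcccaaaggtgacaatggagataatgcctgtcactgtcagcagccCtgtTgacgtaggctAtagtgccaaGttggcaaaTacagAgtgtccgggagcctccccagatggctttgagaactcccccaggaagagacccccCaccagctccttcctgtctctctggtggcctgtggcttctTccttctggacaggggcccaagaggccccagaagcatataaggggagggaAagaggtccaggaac
In pairs these windows differed at 5 to 7 aligned bases with 1 or 2 gap columns (96.7% to 97.6% identical). Each holds TATAA, 26, 31 and 29 bases before the start in Dcpp1, Dcpp2 and Dcpp3. On either strand, 22.8% of all promoter windows hold it.

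Pax8 was detected in 29 of 30 libraries and was highest in the ovary richest in Ovgp1. In DSS mice it was at 3.92, 14.1 and 226 (lowest, median, highest) in left ovaries and 0.92, 4.22 and 18.3 in right ovaries. Control mice had 1.33, 4.54 and 7.62 in left ovaries, and 0, 9.31 and 92.9 in right ovaries. The groups overlapped, and left control ovaries again had no high value. Pax8 (ENSMUSG00000026976.15; chromosome 2, 24420260 to 24475599, minus strand) overlaps Gm13415 on the other strand, and because it is not known whether reads were counted by strand, its level is uncertain.

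Pax2 had a narrower range. It was highest in the left ovary of DSS_11.2 (57.6), the right ovary of control_10.5 (29.98) and the left ovary of DSS_10.4 (16.5), and its group medians were 7.61 and 2.61 in left and right DSS ovaries, and 5.34 and 5.69 in left and right control ovaries. The other 27 libraries lay at or under 11.3, the value in the left ovary of control_16.9, an ovary with 259 counts of Ovgp1. Pax2 was thus not confined to ovaries with much Ovgp1. The gene (ENSMUSG00000004231.15; chromosome 19, 44756045 to 44838171, plus strand) overlaps Gm20395 and 1700039E22Rik on the other strand and is uncertain for that reason. Of the other 7 Pax genes, none reached a mean of 5. Pax5, a B cell factor, had the highest mean, 2.44, and Pax6, known from eye and pancreas, had 0.955.

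Il20rb was detected in every library, at 4.76, 10.2 and 68.2 (lowest, median, highest) in left and 0.92, 2.79 and 9.46 in right DSS ovaries. In control mice it was at 1.18, 4.83 and 12.4 in left ovaries and at 2.49, 6.17 and 26.98 in right ovaries. The right ovary of DSS_11.1 had 1 read (1.3 normalized counts) beside 10439.8 counts of Ovgp1, so high Ovgp1 did not always come with high Il20rb. Il20ra, which pairs with Il20rb to bind these cytokines, is listed at 0 in all 30 libraries, as is the ligand Il22, whose own receptor lacks Il20rb. The other alpha chain, Il22ra1, had a single library above 0, at 1.13. Of downstream genes, Jak1, a kinase of cytokine receptors, was at 2116 to 4247 and Stat3, a transcription factor it activates, at 111 to 198. Il10rb, the beta chain of the related IL-10 and IL-22 receptors, was at 362 to 722, and Socs3, an inhibitor induced by Stat3, at 3.51 to 17.4. Il20rb (ENSMUSG00000044244.18; chromosome 9, 100457419 to 100486788, minus strand) overlaps no annotated gene.

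Kndc1 separated the sides of control mice most evenly. It was at 0 in 6 of their 8 left ovaries and at 1.13 and 5.41 in the other 2, against 1.01, 6.83 and 40.97 (lowest, median, highest) in their right ovaries. DSS mice had 0.53, 4.35 and 126.9 in left ovaries and 0, 1.99 and 22.7 in right ovaries. Right control ovaries exceeded the left ovary of the same mouse in 8 of 8 mice, but many values rest on few reads: 17 of the 30 libraries had 3 reads or fewer. Kndc1 (ENSMUSG00000066129.15; chromosome 7, 139894696 to 139941837, plus strand) overlaps no annotated gene.

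Likeness to Ovgp1 was measured as Pearson's r of log2(normalized count + 1) over the 30 libraries, which share 1 normalization and come in pairs from 1 mouse. Kndc1 had an r of 0.93 and Pax8 of 0.92, ranks 15 and 25 of 14645 other genes whose mean level was 5 or more. Dcpp1 had 0.82 (rank 151), Dcpp3 0.73 (293), Il20rb 0.71 (317), Pax2 0.51 (918) and Dcpp2 0.46 (1157). The median over these genes was -0.01. By Spearman's rho over the same libraries Kndc1 had 0.84, Pax8 0.85, Dcpp1 0.74, Dcpp3 0.67, Il20rb 0.56, Dcpp2 0.42 and Pax2 0.27.

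Part of this likeness rested on few ovaries. Without the 2 libraries farthest from the median of Ovgp1 (the left ovary of DSS_11.2 and the right ovary of control_10.5), r was 0.90 for Kndc1 and 0.88 for Pax8, but 0.73 for Dcpp1, 0.60 for Dcpp3, 0.57 for Il20rb, 0.27 for Dcpp2 and 0.25 for Pax2. Leaving out the left ovaries of DSS_16.3 and control_13.4 in their place, a choice made after the values were seen, raised Dcpp1 to 0.90, Dcpp3 to 0.86 and Dcpp2 to 0.68. Dcpp1 and Dcpp3 had an r of 0.89 with each other, and how many reads they share was not tested.

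**Figure D2:**
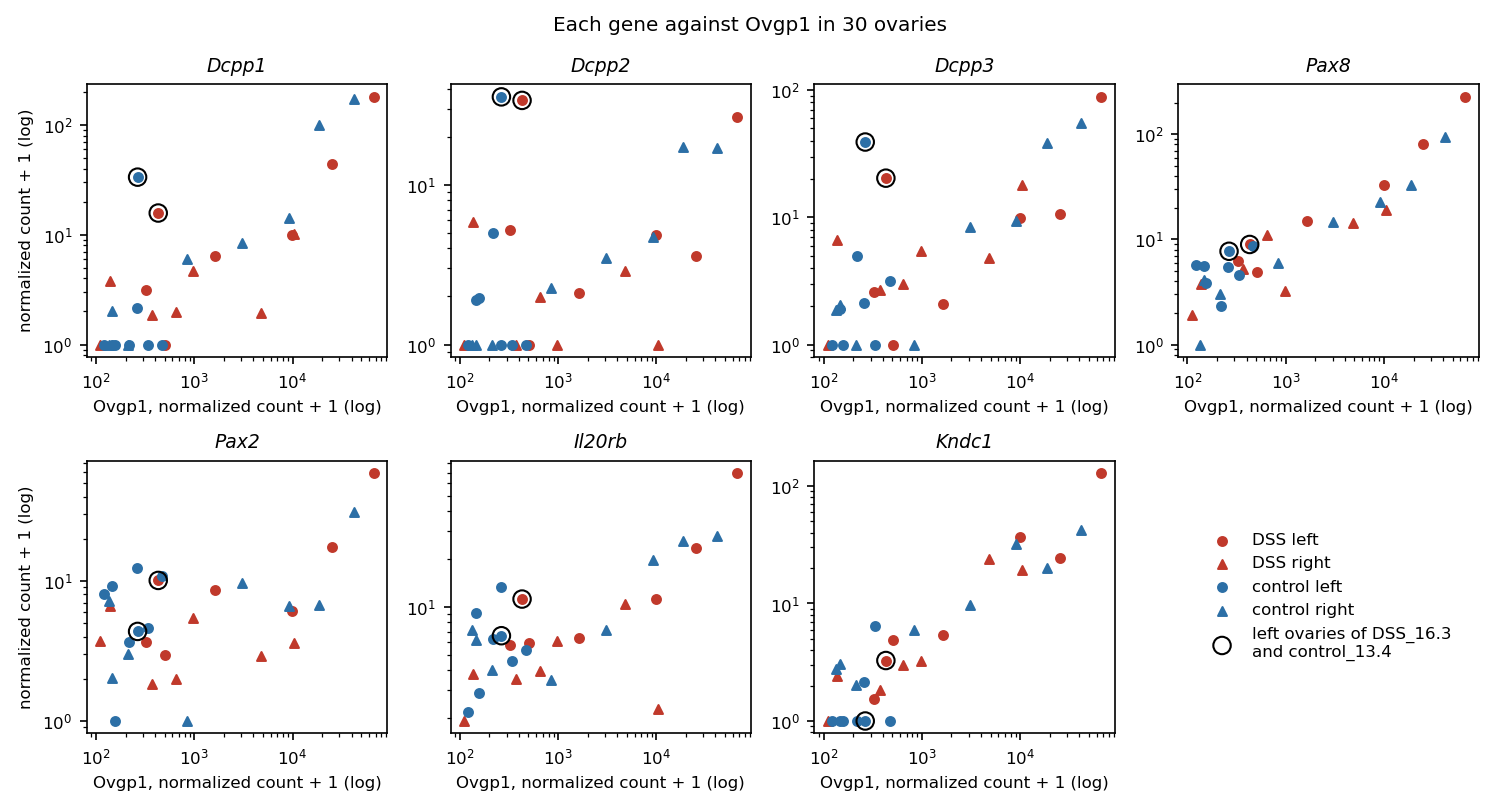
Each of the 7 other genes against Ovgp1 in 30 ovaries, both as normalized count + 1 on log axes. Colour gives the treatment, circles and triangles the left and right ovary, and rings the left ovaries of DSS_16.3 and control_13.4. In Dcpp2 the ringed ovaries, at 32.9 and 34.7, lie above all others.

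By a rule that took the 10 genes most like Ovgp1, the closest were A2ml1, a secreted protease inhibitor of the alpha-2-macroglobulin family (r 0.97; 2.74 to 1940.4 normalized counts), Plekhs1 (0.95) and Gm42890 (0.95). Gm42890 overlaps Ovgp1, so its level is uncertain. Stmnd1, 1700016K19Rik, Dnah5, Fndc7, Sox3, Slc14a1 and Capsl followed, each with an r of 0.94. Among these, Dnah5 is a dynein heavy chain of motile cilia and Slc14a1 a urea transporter. The 5 most like Dcpp1 were Gm266 (0.85), Acpp, a secreted acid phosphatase (0.85), Agr2, a disulfide isomerase of mucus-secreting cells (0.84), the noncoding RNA Rmst (0.83) and Cdh1, the epithelial cadherin (0.83). Their ranks of likeness to Ovgp1 were 188, 223, 51, 17 and 205.

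Ratios to Ovgp1 in the 7 ovaries with over 5000 counts of it were compared, many of them resting on few reads. Pax8 had 1.70 to 3.39 reads per 1000 reads of Ovgp1, a 1.99-fold range. Kndc1 ranged from 0.931 to 3.60 (3.86-fold), Pax2 from 0.25 to 0.863 (3.46-fold), Dcpp3 from 0.379 to 2.01 (5.31-fold), Dcpp1 from 0.874 to 5.32 (6.08-fold), Il20rb from 0.125 to 2.04 and Dcpp2 from 0 to 0.877. Low counts set several of these ends. The lowest ratio of Il20rb was 1 read (exact Clopper-Pearson 95% interval 0.0032 to 0.696) in the right ovary of DSS_11.1. In the other 6 ovaries the ratio of Il20rb was at 0.644 to 2.04. The lowest ratio of Pax2 was 2 reads in the right ovary of DSS_11.1, with an interval of 0.030 to 0.902 that holds its highest ratio, 0.863. Foxj1, the regulator of ciliated cells, which was added after its values were seen, ranged from 0.516 in the right ovary of control_13.4 to 7.13 in that of control_16.9 (13.8-fold). The Dcpp1 ratio was highest in right ovaries of control_13.4 (5.32, exact Clopper-Pearson 95% interval 4.34 to 6.45) and control_10.5 (4.08, 3.49 to 4.74). It was lowest in both ovaries of DSS_11.1 (0.899, 0.361 to 1.85, and 0.874, 0.351 to 1.80). Such intervals come from the share of the gene among its own and the Ovgp1 reads, and cover counting error of both. Reads without known molecular identifiers may not be independent molecules.

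The left ovaries of DSS_16.3 and control_13.4 had Dcpp transcripts without much Ovgp1. In the first, Ovgp1 was at 429 and Dcpp1, Dcpp2 and Dcpp3 at 14.8, 32.9 and 19.3 (13, 29 and 17 reads). In the second, Ovgp1 was at 264 and the 3 genes at 32.5, 34.7 and 38.05 (29, 31 and 34 reads). Their Dcpp1 exceeded that of 24 of the other 28 libraries and their Dcpp2 that of all 28. Pax8 was at 7.95 and 6.71 there, Kndc1 at 2.27 and 0, and Foxj1 at 3.41 and 0, all within the range of ovaries low in Ovgp1.

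The mix of the 3 Dcpp genes also differed. In the 8 libraries with at least 20 Dcpp reads, Dcpp2 made up 49.2% of them (exact Clopper-Pearson 95% interval 35.9 to 62.5) in the left ovary of DSS_16.3 and 32.98% (23.6 to 43.4) in that of control_13.4. In the 4 ovaries richest in Ovgp1 it made up 4.69% to 10.7%, with Dcpp1 at 61.3% to 78.1%. Dcpp1 was at 22.03% (12.3 to 34.7) and 30.9% (21.7 to 41.2) in the left ovaries of DSS_16.3 and control_13.4. The right ovary of control_13.4, from the same mouse as one of these, had 10.7% Dcpp2 (6.35 to 16.6) and 64.8% Dcpp1 (56.8 to 72.2). The right ovary of DSS_16.3, with 19 reads, had 36.8% Dcpp2 (16.29 to 61.6) and 21.1% Dcpp1 (6.05 to 45.6). Another ovary under 20 reads with low Ovgp1, the left ovary of DSS_13.2 (15 reads, Ovgp1 at 325), had 53.3% Dcpp2 (26.6 to 78.7) and 26.7% Dcpp1, and in the left ovary of control_15.3 Dcpp2 had 3 of 6 reads. Right ovaries of control_16.9 and DSS_11.1, with 27 and 20 reads, had 51.9% and 35% Dcpp1. These shares are a description of single libraries.

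**Figure D3:**
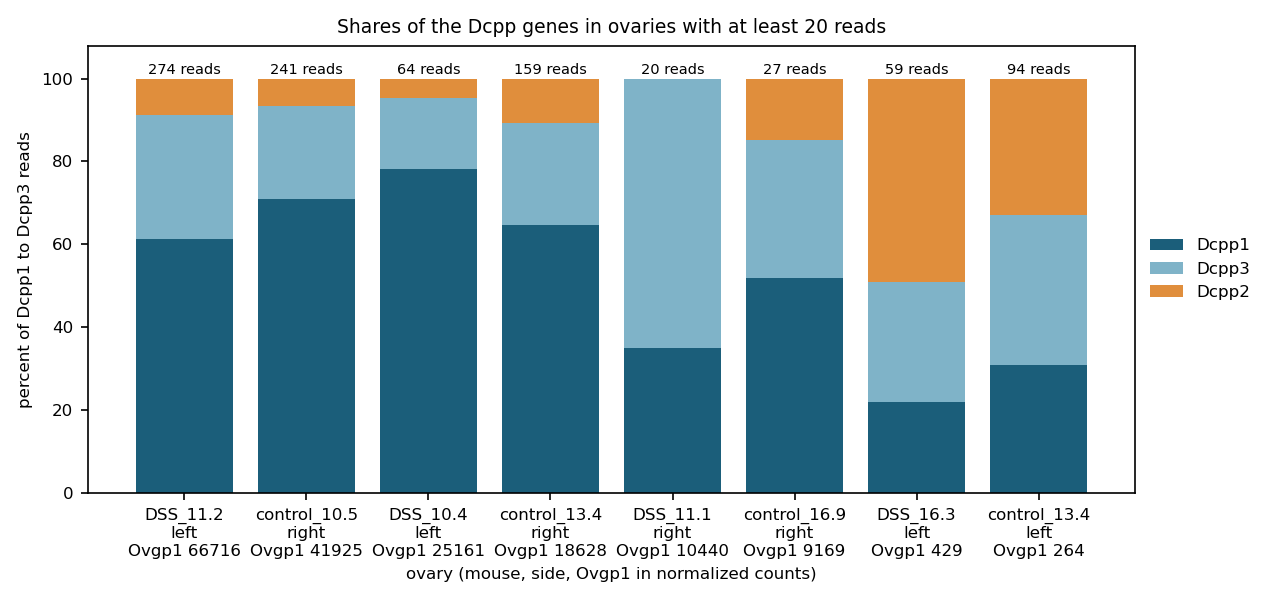
Shares of Dcpp1, Dcpp3 and Dcpp2 among their summed reads (percent) in the 8 ovaries with at least 20 such reads, from high to low Ovgp1 (normalized counts under each bar), with the reads above. Dcpp2 is at 49.2% and 32.98% in the 2 ovaries at the right and at most 14.8% in the other 6.

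Markers of other tissues were high in the same ovaries. Bpifa2, a secreted protein of parotid saliva, was at 186 in the left ovary of DSS_16.3 and 586 in that of control_13.4, above all 28 other libraries. The summed salivary list of 11 genes was at 284 and 706 there against at most 196 elsewhere, most of it Bpifa2. Its other abundant genes, Amy1 (salivary amylase) at 36.3 and 72.7 and Zg16 at 31.8 and 23.5, lay within the range of the other libraries, Aqp5, a water channel of serous glands, was at 7.95 and 2.24, Lpo was at 0 in both, and Smgc, a mucin-like gene of the sublingual gland, at 0 and 2.24. Scarcer members of the list were high in one or both: Muc19, a salivary mucin, was at 2.27 and 12.3, the second being the highest of 30 libraries, Pip at 9.08, the highest of 30, and 1.12, and Prol1 at 2.27 and 3.36, with 27 of the 28 others below both. Several keratins of stratified epithelium were also high there: Krt5 was at 804 and 1121, Krt4 at 409 and 429.7 and Krt13 at 574 and 586, each above all 28 others. Krt14, at 426 and 833, and Sprr1a, of the cornified envelope, at 4055 and 2638, had 26 and 27 of the 28 others below both, and Lor, also of the cornified envelope, was at 66.98 and 29.1 against a highest value of 410 elsewhere. High keratinocyte levels did not always come with Dcpp reads. The summed list of 8 keratinocyte genes was at 6387 in the left ovary of DSS_16.3 and 5659 in that of control_13.4, but at 5771 in the left ovary of control_11.4, which had 2 Dcpp reads, and at 2657 in that of control_10.5, which had 0. The part of such cells in the Dcpp values was not tested. Over all 30 libraries Krt5 had an r of -0.26 with Ovgp1 and Bpifa2 one of -0.05. Krt4, Lor, Lpo, Smgc, Muc19, Pip and Prol1 were named after their values were seen.

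Left minus right within a mouse was taken on the log2(normalized count + 1) scale and is one of the measures the genes were selected on. For Ovgp1 it was -3.88, 2.13 and 6.10 (lowest, median, highest) in 7 DSS mice, with the left ovary higher in 5, and -6.96, -3.41 and 1.69 in 8 control mice, with the right ovary higher in 6. Means were 1.91 ± 3.33 (SD) and -2.94 ± 3.22. The 2 sets overlapped, and in each treatment some mice went against the mean: DSS_13.2 had 325 on the left and 4798 on the right, and control_13.5 had 469 on the left and 145 on the right. In DSS_11.1 the sides were nearly level.

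Dcpp1 had a mean difference of 2.04 ± 2.11 in DSS mice (left higher in 5, right in 1, level at 0 in 1) and of -2.30 ± 2.39 in control mice (right higher in 6, level at 0 in 2). Kndc1 had 1.37 ± 2.85 (left higher in 6 of 7) and -2.61 ± 1.19 (right higher in 8 of 8). For Pax8 the means were 1.82 ± 2.26 and -0.91 ± 1.95, and for Il20rb 1.65 ± 1.39 and -0.79 ± 1.0045, with the left ovary higher in 6 of 7 DSS mice for each and the right in 5 and 7 of 8 control mice. Dcpp2 had 1.76 ± 1.58 in DSS mice (left higher in 6, level at 0 in 1) and -0.51 ± 1.96 in control mice (left higher in 2, right in 4, level at 0 in 2). Pax2 had 1.45 ± 1.47 (left higher in 6, right in 1) and 0.04 ± 1.58 (left higher in 3, right in 4, level at 0 in 1).

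Dcpp3 showed no side that most mice shared. Its means were 0.77 ± 1.81 in DSS mice (left higher in 3, right in 3, level at 0 in 1) and -0.999 ± 2.30 in control mice (left higher in 3, right in 3, level at 0 in 2), and its medians were 0 in both. Without DSS_11.2 the DSS mean of Dcpp3 was 0.22, and without control_10.5 its control mean was -0.32. The control mean of Dcpp2 was 0.0057 without control_10.5, and the Dcpp1 means were 1.498 without DSS_11.2 and -1.57 without control_10.5. Without DSS_16.3 the DSS means of Dcpp1, Dcpp2 and Dcpp3 were 2.03, 1.63 and 0.62, and without control_13.4 the control means were -2.40, -0.73 and -1.14.

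Over the 14646 genes that passed the filter on low means, 20.5% had means that were left-higher in DSS and right-higher in control mice, as did 7 of the 8 genes here, Dcpp3 and Dcpp2 among them with the mixed counts above. A DSS minus control gap of these means over 2 was found in 0.901% of them (132 genes) and in 6 of the 8 genes here: Ovgp1 (4.85), Dcpp1 (4.34), Kndc1 (3.98), Pax8 (2.74), Il20rb (2.44) and Dcpp2 (2.26). Since the genes were chosen by these differences, nothing is read from these counts.

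**Figure D4:**
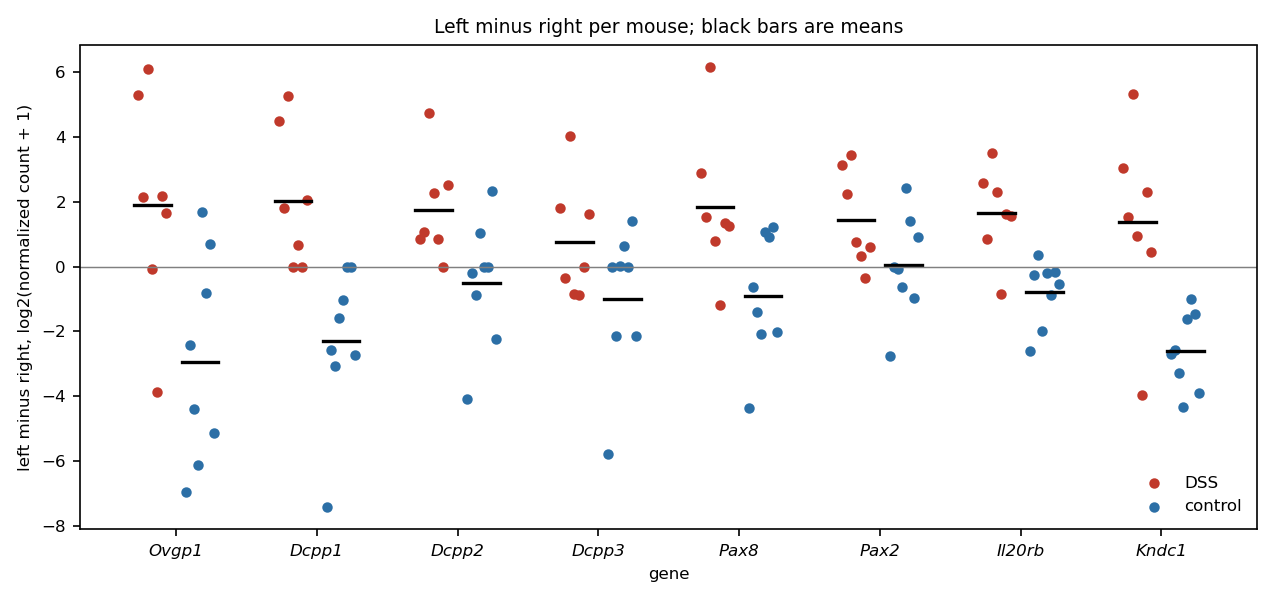
Left minus right difference of log2(normalized count + 1) in each mouse, by gene, for 7 DSS and 8 control mice. Points are mice and black bars are means. Ovgp1 has means of 1.91 in DSS and -2.94 in control mice with overlapping points, and all 8 control mice are below 0 in Kndc1.

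Whether DSS before puberty was followed by another level of these genes was tested over mice, with both ovaries of a mouse averaged, a contrast the selection did not use. None of the 8 passed: 0 had an adjusted p under 0.05 with limma and 0 an unadjusted p under 0.05, and for the whole table these shares were 0% and 7.98% of 14646 genes. Ovgp1 averaged 8728 ± 12182 (SD, n = 7) in DSS mice and 4755 ± 7368 (n = 8) in control mice, a log2 difference of 1.08 (SE 1.20, 95% interval -1.44 to 3.60, limma adjusted p = 0.843). By mouse it was at 283, 2562 and 33844 (lowest, median, highest) in DSS and 166, 1051 and 21130.2 in control mice, so the groups overlapped over most of their range.

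Pax8 was at 2.42, 9.27 and 114 in DSS mice and 0.665, 7.23 and 48.3 in control mice, with a log2 difference of 0.92 (SE 0.73, limma adjusted p = 0.766). Kndc1 was at 1.84, 11.6 and 64.5 and at 0.505, 3.42 and 23.2 (log2 0.96, SE 0.74, limma adjusted p = 0.760). Differences of the other 5 were 0.49 for Dcpp1, 0.45 for Dcpp3, 0.28 for Dcpp2, 0.19 for Pax2 and 0.18 for Il20rb, with limma adjusted p between 0.915 and 0.947. Without the left ovaries of DSS_16.3 and control_13.4 the differences were 0.22 for Dcpp1, 0.11 for Dcpp2 and 0.30 for Dcpp3. All 8 estimates were above 0, with a median of 0.47 against 0.0018 over all genes tested, of which 50.6% were above 0. The genes vary together, so the 8 signs are not independent, and the intervals reach from -1.73 to 3.60 on the log2 scale.

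These estimates depended on side and on single mice. In right ovaries alone all 8 were below 0, from -0.33 (Dcpp3) to -1.60 (Dcpp1), and in left ovaries alone Ovgp1 was at 3.71. Levels by side are part of the left minus right differences the genes were selected on. Fits with either side alone are therefore a description without a test, and nothing is read from the signs by side. The share of all genes below 0 in right ovaries was not counted. Without mouse DSS_11.2 the difference of Ovgp1 was 0.47, that of Pax8 0.45 and that of Kndc1 0.51, and those of the other 5 were below 0. Without control_10.5 the difference of Ovgp1 was 1.66. With the label number before the dot as a block, the differences of Ovgp1, Pax8 and Kndc1 were 0.41, 0.48 and 0.52. What that number marks is not given.

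Other genes of the oviduct lining were taken from lists, none of which had a gene past the threshold for DSS against control. Genes called higher below had a log2 estimate above 0, as 50.6% of all genes tested had. Genes that vary together do not give independent signs. All 14 tested ciliated cell genes had an estimate above 0 and 0 were called (median log2 0.85). Their median r with Ovgp1 was 0.85, with Tppp3 at 0.84, Rsph1 at 0.84, Dynlrb2 at 0.93 and Sntn, a ciliary tip protein, at 0.92. Summed ciliated cell levels ran from 121 to 1952 in DSS and from 84.9 to 995 in control ovaries, and Foxj1 and Sntn were at 0 in 6 and 10 libraries. Regulators of the embryonic duct and oviduct had 8 of 8 tested genes higher, 0 called (median log2 0.39), with r of 0.82 for Sox17, 0.81 for Pgr, the progesterone receptor, 0.78 for Esr1 and 0.58 for Wt1, which the ovary surface also expresses. Simple epithelium had 12 of 14 higher, 0 called, and a median r of 0.68, with Epcam at 0.79, Ehf at 0.73, Krt8 at 0.68 and Krt19 at 0.68.

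Secreted proteins of oviduct and uterine fluid were mixed: 5 of 9 had a log2 estimate above 0, 0 were called, and r ran from -0.33 to 0.80. Ltf (lactotransferrin) had an r of 0.75 and C3 (complement) of 0.60, while Clu and Gpx3, which were at 2061 to 3493 and 3102 to 9475 in every ovary, had -0.25 and 0.11. Relatives of Ovgp1 in the chitinase family did not follow it where they were abundant enough to be tested: Chid1 was at 68.2 to 142 with an r of -0.07 and Ctbs at 3.91 to 16.2 with -0.05. Chil3 and Chil1, at means of 4.35 and 2.31, had 0.25 and 0.33. Chia1, named after its values were seen, had an r of 0.87 at a mean of 1.23 and was at 0 in 19 libraries.

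Other cell types varied with Ovgp1 as well. Smooth muscle genes, of which the oviduct wall has a layer, had a median r of 0.65 over 6 genes, with Des at 0.75, Myh11 at 0.67, Actg2 at 0.63 and Acta2 at 0.61. Their sum was 24888 in the left ovary of DSS_11.2 against a range of 3062 to 13461 in control ovaries. Adipocyte genes had a median r of 0.33 over 7 genes (Car3 0.40, Cfd 0.34, Adipoq 0.33, Fabp4 0.31). The ovary list of granulosa, oocyte, theca and luteal genes had a median r of -0.38 over 12 genes, and its sum was lowest, 9928, in the left ovary of DSS_11.2 (23825 to 37781 in control ovaries). The part of these cells in the DSS estimates was not tested.

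**Figure D5:**
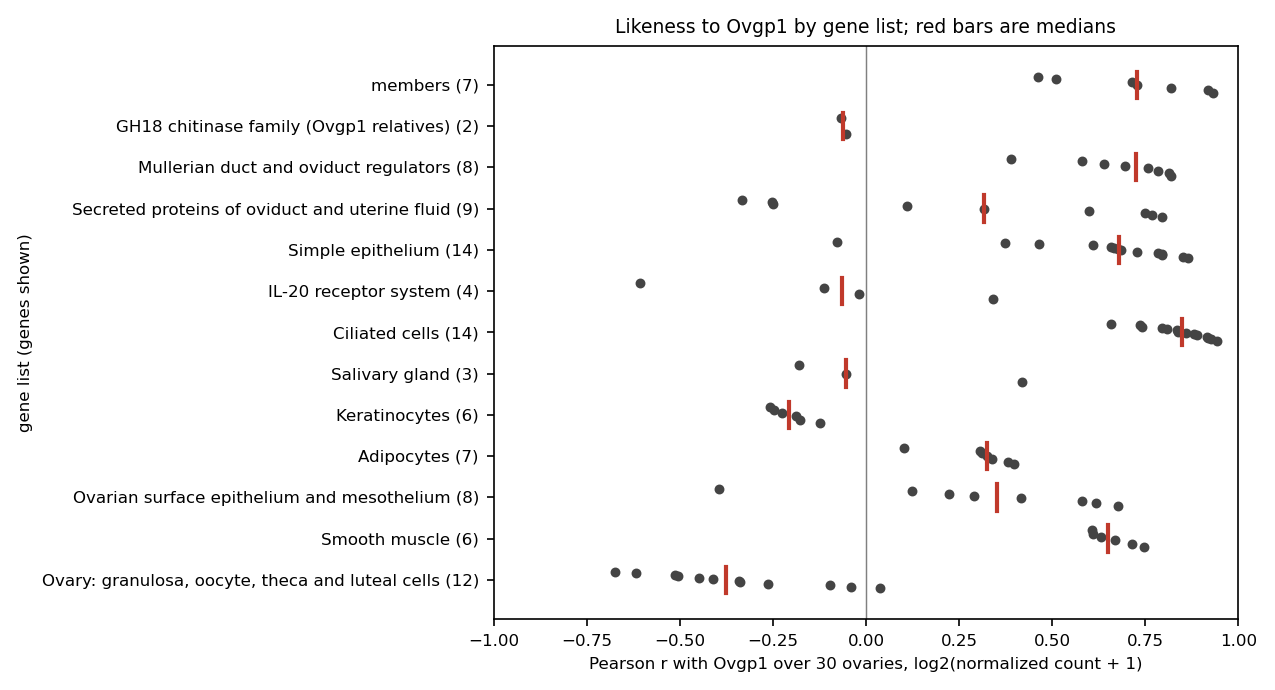
Pearson's r with Ovgp1 over 30 ovaries for each gene with a mean of at least 5, by gene list, with the number of genes in brackets and red bars as medians. Ciliated cell genes have a median of 0.85 and the ovary list one of -0.38.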

How the data were processed

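RNA of 30 ovaries was measured by CEL-Seq with 3 primers per sample, per the labels' protocols. TopHat, HTSeq and DESeq2 were used with GRCm38.p5, per the submitters' processing notes. Versions, strand setting and the handling of molecular identifiers are not given in the sources used here. The authors deposited a signal per gene, normalized counts, which per the file headers are one value per ovary. Within a library all values were multiples of 1 step, which lay between 0.528 and 1.33. Dividing by it returned whole reads for 99.99% to 100% of values within 0.0051 normalized counts, and these recovered reads entered edgeR and DESeq2 as alternatives.

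The treated mouse was the replicate. Both ovaries were averaged, and a two-sided limma test with a trended variance (version 3.58.1, R 4.3.3) was run on log2(mean + 1) for 14646 genes with a mean of at least 5, with Benjamini-Hochberg adjustment over all of them and a threshold of 0.05. This scale understates changes of low genes. All 8 genes passed the filter, some only through the ovaries where they were high. The labels say only that the mice were littermates of 2 groups. Litters are not given, so p-values measure the spread between these mice. The ovaries of 1 mouse share an animal: after removal of group means their median correlation was 0.18, over 0.1 in 10 of 15 mice. The fit was also run on simulated reads drawn independently for each gene. Such reads do not vary together as the 8 genes do, so no power or error rate for these genes is read from that run.

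The genes, lists and rules were chosen with earlier results of these data known. Named were the 8 genes, the 10 most like Ovgp1 and 5 most like Dcpp1 by r, and up to 4 genes of highest mean per list. Promoter windows come from RefSeq (GRCm38.p6, all 8 genes matched) and overlaps from GENCODE M21. Pairwise identities were computed with Biopython 1.88. Alternatives changed the pseudocount, filter, scaling, side, block, mice and test tool.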

Additional observations from a re-analysis of the deposited data

Results flagged for a closer look

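Within each treatment and side, the highest or lowest ovary was compared with the nearest of the others on the log2 scale (Dixon's criterion, 32 sets of 7 or 8 ovaries). It stood apart in 4 sets. The criterion assumes normal values, and in left control ovaries Dcpp1 and Kndc1 were each at 0 in 6 of 8. No rate expected by chance is therefore given, and the flags are a description of levels the genes were selected on. In left ovaries of control mice, the ovary of control_13.4 stood above the rest in Dcpp1 (32.45 normalized counts, 29 reads), Dcpp2 (34.69, 31 reads) and Dcpp3 (38.05, 34 reads). These 3 sets are not independent, since the genes share sequence. In the same group, Kndc1 was at 5.41 (6 reads) in the left ovary of control_10.5 and at most 1.13 in the other 7.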

How the results depend on the processing

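None of the 8 genes was called for DSS against control under any alternative, 27 or 28 for each gene, and with a minimum mean of 20 only Ovgp1, Dcpp1 and Pax8 were tested. Fits in left or right ovaries alone are among these alternatives. They use levels the genes were selected on, so for the 8 genes they are no test. Over all genes the count of calls was 0 in the fit reported, 11 in left ovaries alone, 1 in right ovaries alone, 6 with edgeR and 52 with DESeq2. Leave-one-out counts ran from 0 to 13, with 13 without DSS_15.1, 1 without DSS_13.2 and 1 without control_10.5. With the mouse as a replicate block over 30 libraries 1 gene was called, and with the label number before the dot as a replicate block 3 were. That number is shared by 11 combinations of a DSS with a control mouse, in which a mouse can recur. Their deviations had a median correlation of 0.03 (-0.46 to 0.45), and what the number marks is not given.

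Contrasts within 1 side share values with the left minus right differences the genes were selected on. The direction turned in right ovaries alone for Ovgp1 (-1.14), Dcpp1 (-1.60), Dcpp2 (-0.95), Dcpp3 (-0.33), Pax8 (-0.63), Pax2 (-0.64), Il20rb (-1.26) and Kndc1 (-1.05). It turned for Dcpp1 with edgeR (-0.26), DESeq2 (-0.26) and the number block (-0.064). For Dcpp2 it turned with DESeq2 (-0.0087) and for Pax2 with the number block (-0.033). For Il20rb it turned with the mean of log2 values (-0.038), the mouse as replicate block (-0.038), the number block (-0.014) and without the left ovaries of DSS_16.3 and control_13.4 (-0.049). Leaving out each mouse gave -0.10 to 1.05 for Dcpp1, -0.11 to 0.72 for Dcpp2, -0.026 to 0.90 for Dcpp3, -0.18 to 0.42 for Pax2 and -0.17 to 0.37 for Il20rb. The sign turned for these 5 without DSS_11.2, for Dcpp2 also without DSS_16.3, for Pax2 and Il20rb without control_10.6 and for Il20rb without control_15.4. The cause was not tested. Leaving out 1 mouse or taking the median cannot move a left minus right mean by more than the SD over mice. No count against that SD is therefore given. Kndc1 in control mice had a left minus right mean of -1.33 with a pseudocount of 5, against -2.61 (SD 1.19) in the values reported. Depth limits Dcpp2 most, with 3 reads or fewer in 22 of 30 libraries.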
